A study of Mus musculus with 5 samples.

Results

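The genes described here are 10 genes of the amino acid response that is run by the transcription factor ATF4, and they were chosen by name from textbook knowledge of that response: Atf4, Atf5, Ddit3, Asns, Psat1, Phgdh, Chac1, Trib3, Sesn2 and Ddit4. Earlier results of these data were known when they were chosen. The deposited table held 22 protein-coding transcripts of these genes, and all 10 genes were found among the 21849 genes with a protein-coding transcript. For each gene, the protein-coding transcript with the highest mean over the 5 libraries gave the main value. The data were ribosome profiles of mouse embryonic stem cells (mESCs), pluripotent cells grown in serum and LIF medium, and profiling counts the short RNA fragments that a ribosome shields from nuclease. For standard RIBO-seq (3 libraries), all ribosomes of the lysate were spun down through sucrose. For AHARIBO RIBO-seq (2 libraries), nascent chains that had taken up L-azidohomoalanine (AHA), an analogue of methionine, were coupled to biotin and pulled down on beads. All 5 libraries came from cells given cycloheximide, a blocker of elongation, and from lysates digested with RNase I, and the labels call every library untreated and number the libraries as biological replicates. The study's scheme of the method puts methionine depletion ahead of AHA, for ribosome profiling too. Its methods give a dose and time of AHA for mESC proteomics and RNA-seq and do not repeat them for these libraries. Standard RIBO-seq is described as made from the input of the pulldown, so the comparison of both methods sets captured ribosomes against all ribosomes. No library is labelled as cells kept from AHA, so the comparison does not measure what AHA does to the cells.

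When an amino acid runs short, uncharged tRNA activates the kinase GCN2, which phosphorylates the initiation factor eIF2α and lowers initiation on most mRNAs. The mRNAs of Atf4 and Atf5 carry short upstream open reading frames (uORFs), of which the last runs across the start of the protein, and slow re-initiation lets ribosomes skip that last uORF and reach the protein. ATF4 then switches on amino acid synthesis and transport together with brakes on the response itself, and a methionine analogue could in principle touch this pathway.

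The starts at which ribosomes can begin on the Atf4 and Atf5 mRNAs are shown because both leaders lie partly in shorter isoforms whose reads are compared with those of the full transcripts, which for Atf5 places reads in front of the protein. Each line gives a start codon in capitals with the flanking bases of the transcript, read by coordinates from GRCm38 with Gencode M21 exons.
Atf4 upstream start 1, nt 120, chr15:80255297-80255309, plus strand: tctctcATGgggc
Atf4 upstream start 2, nt 399, chr15:80255576-80255588, plus strand: gccaccATGgcgt
Atf4 upstream start 3, nt 498, chr15:80255675-80256208 across an intron, plus strand: taagccATGgcgc
Atf4 protein start, nt 595, chr15:80256293-80256305, plus strand: cacaacATGaccg
Atf5 upstream start 1, nt 122, chr7:44816531-44816543, minus strand: cgcgcaATGgctc
Atf5 upstream start 2, nt 253, chr7:44815281-44816412 across an intron, minus strand: gccgccATGgagt
Atf5 protein start, nt 374, chr7:44815160-44815172, minus strand: acagccATGtcac
The third uORF of Atf4 has 59 codons and ends at nt 677, inside the coding sequence. The second uORF of Atf5 has 58 codons and ends at nt 429, also inside the coding sequence. Ddit3 has a uORF of 34 codons from nt 56 to nt 160 with a second in-frame start at nt 65. Asns and Sesn2 have upstream starts whose frames close in the leader, and that of Psat1, of 66 codons, runs across the protein start. Chac1, Trib3, Ddit4 and Phgdh have no ATG in the leader.

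**Figure D1:**
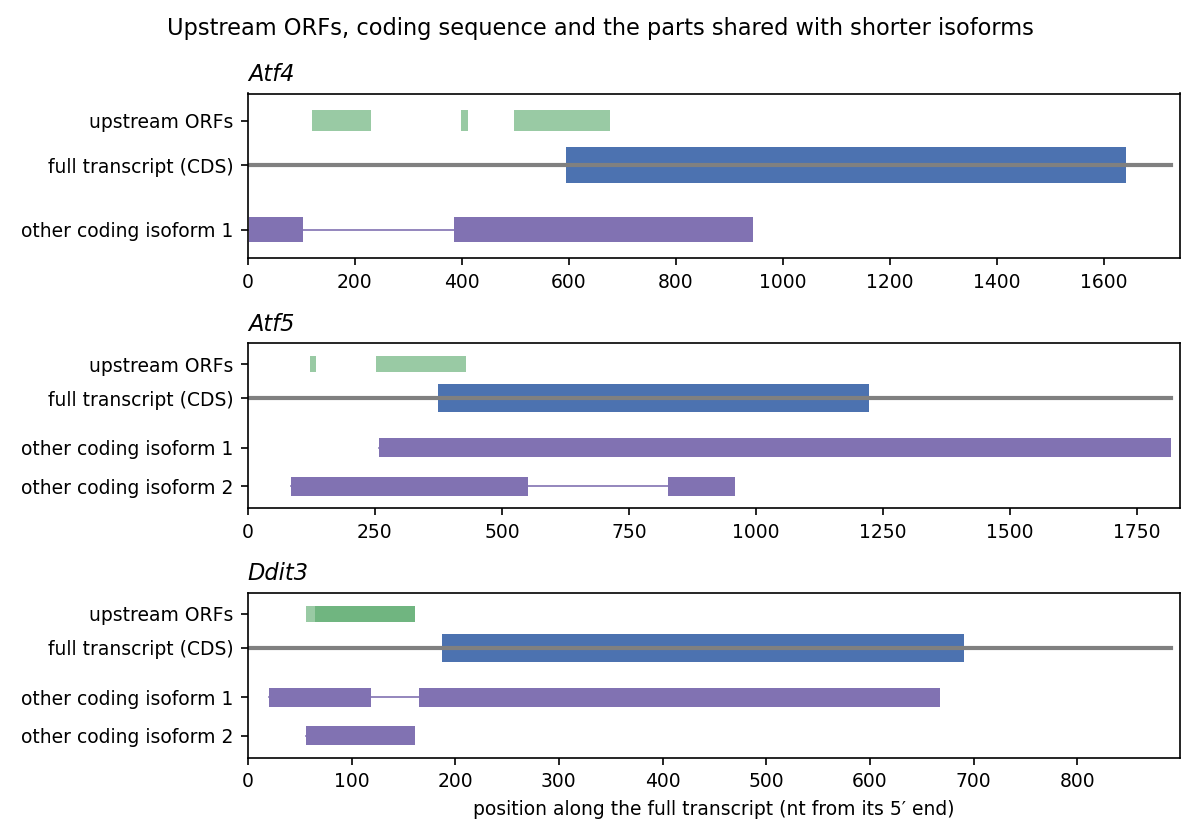
Maps of the Atf4, Atf5 and Ddit3 transcripts, with position from the 5′ end in nt on the x axis. Green bars are upstream open reading frames, blue bars the coding sequence, and purple bars the parts of the full transcript that other annotated coding isoforms share, which for Atf5 are nt 258 to 1815 in the first isoform and nt 85 to 551 with nt 827 to 957 in the second.

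After removal of duplicate reads the counts summed over transcripts to between 6403651 and 11150527 per library, and a count of 3, taken as the floor, stood for 0.269 to 0.468 CPM, the count scaled to a common library total. These bounds cover counting error only. Log2 CPM of single libraries correlated at 0.973 to 0.988 across transcripts. All 10 stem cell markers were present, with group means of 45.7 CPM or more, and summed to between 1500.5 and 1606 CPM in standard RIBO-seq and between 1349 and 1469.8 CPM in AHARIBO RIBO-seq. Markers of fibroblasts (5, led by Thy1 at 2.94 CPM in standard RIBO-seq) and of primitive endoderm (5, led by Sox7 at 2.71 CPM) summed to at most 7.3 CPM. The 5 neuron markers summed to at most 41.9 CPM, nearly all of it Tubb3 at 36.5 CPM. Among the 66972 transcripts tested, 3021 (4.51%) had an adjusted p under 0.05 in edgeR's quasi-likelihood test, 1501 (2.24%) of them lower and 1520 (2.27%) higher in AHARIBO RIBO-seq. In 16.5% of the tested transcripts both AHARIBO libraries lay below all standard libraries.

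Footprints on all 10 genes in AHARIBO RIBO-seq were at or below the level of standard RIBO-seq, and only Atf5 fell by the edgeR test. The log2 fold changes, AHARIBO against standard, ran from -0.41 for Atf5 to -0.03 for Asns with a median of -0.15, where the median over all 66972 transcripts was 0.0022. All 10 were below 0, as were 50.6% of the highest coding transcripts of the 12361 genes tested, although Asns, Psat1 and Ddit3 changed sign under alternatives given with their values. Both AHARIBO libraries lay below all standard libraries in 8 of the 10 genes, and in none above. Of the highest coding transcripts of the 12361 genes, 17.1% were below and 17.2% above, and of all transcripts 16.5% and 17.3%. DESeq2 called none of the 10 (2 had an unadjusted p under 0.05, against 4 in edgeR, all lower), where it called 1.44% of the transcripts it gave an adjusted p. An unadjusted p under 0.05 was found for 4354 of 66972 transcripts in DESeq2. In edgeR with TMM normalization after the filter on low counts it was found for 12587 of 66972, and again for 4 of the 10 genes. Because CPM are shares of a library, the test compares the share of ribosomes on a gene between captured and total ribosomes, and RNA level and ribosome load cannot be told apart.

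**Figure D2:**
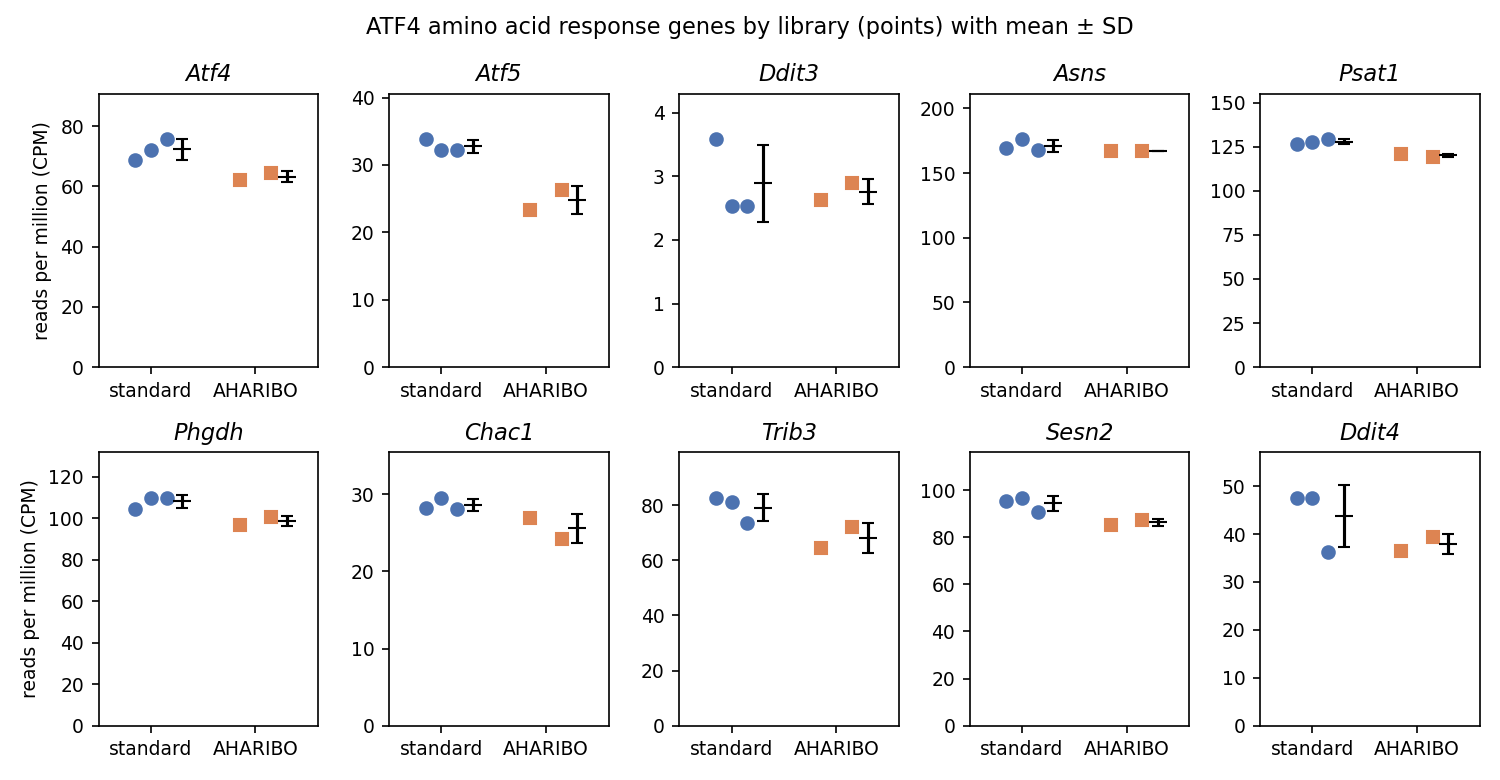
CPM of the main transcript of each gene in the 3 standard (circles) and 2 AHARIBO (squares) libraries, with mean ± SD in black, on axes that start at 0. The AHARIBO points lie below the standard points except in Ddit3 and Ddit4, and the gap is widest relative to the level in Atf5.

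Atf4 encodes the bZIP factor at the head of the response (ENSMUST00000109605.4, chr15:80255184-80257541, plus strand, 3 exons). It had 68.9, 72.2 and 75.7 CPM in standard replicates 1 to 3 and 61.9 and 64.5 CPM in AHARIBO replicates 1 and 2. The groups did not overlap, with means of 72.3 ± 3.39 (SD, n = 3) and 63.2 ± 1.81 CPM (SD, n = 2). The log2 fold change was -0.19 (SE 0.08, 95% interval -0.35 to -0.03) and did not pass the adjusted test (edgeR, adjusted p = 0.181).

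Atf5 encodes a related bZIP factor whose mRNA is under the same uORF control (ENSMUST00000047356.10, chr7:44812256-44816658, minus strand, 3 exons). Standard replicates 1 to 3 had 33.8, 32.2 and 32.2 CPM, from 302, 292 and 203 reads, and AHARIBO replicates 1 and 2 had 23.3 and 26.3 CPM, from 266 and 263 reads. Both AHARIBO libraries were clearly lower, with group means of 24.8 ± 2.11 (SD, n = 2) against 32.8 ± 0.933 CPM (SD, n = 3). The log2 fold change was -0.41 (SE 0.09, 95% interval -0.60 to -0.22; edgeR, adjusted p = 0.00598). DESeq2 gave the same log2 fold change with an adjusted p of 0.108. Without AHARIBO replicate 1 the edgeR value was -0.32 (adjusted p = 0.259), and without standard replicate 1 it was -0.38 (adjusted p = 0.0637).

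Ddit3 encodes CHOP, a bZIP partner of ATF4 tied to prolonged stress (ENSMUST00000026475.14, chr10:127290774-127296288, plus strand, 4 exons). It was the lowest of the 10 genes, with 32, 23 and 16 reads in standard replicates 1 to 3 and 30 and 29 reads in AHARIBO replicates 1 and 2. In CPM these were 3.58, 2.54 and 2.54 against 2.62 and 2.90, so the groups overlapped. The log2 fold change was -0.09 with an interval from -0.59 to 0.42 (edgeR, adjusted p = 0.902), so that values between -33.8% and 34.1% were not told apart at this depth, and without standard replicate 1 it was 0.12.

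None of the 3 enzymes of amino acid synthesis passed the test. Asns makes asparagine and is a classic target of ATF4 (ENSMUST00000031766.11, chr6:7675169-7693254, minus strand, 12 exons). Its values were 169, 176 and 168 CPM in standard replicates 1 to 3 and 167 CPM in both AHARIBO libraries. The AHARIBO values lay just under the lowest standard value, and the log2 fold change was -0.03 (95% interval -0.19 to 0.12; edgeR, adjusted p = 0.862). It was 0.00050 with library size in place of TMM and 0.09 with duplicate reads kept. Duplicates had been 32.6% of its reads in standard and 38.9% in AHARIBO RIBO-seq.

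Psat1, an aminotransferase of serine synthesis (ENSMUST00000025542.9, chr19:15904678-15925059, minus strand, 9 exons), had 127, 127 and 129 CPM in the standard libraries and 120.7 and 119.4 CPM in the AHARIBO libraries. The groups did not overlap, and the log2 fold change was -0.09 (95% interval -0.24 to 0.06; edgeR, adjusted p = 0.575). With duplicate reads kept it was 0.08, and its share of duplicates was 39.2% in standard and 46.5% in AHARIBO RIBO-seq.
Phgdh catalyses the first step of the same pathway (ENSMUST00000065793.11, chr3:98313170-98339990, minus strand, 12 exons). It had 105, 109.9 and 109.8 CPM in the standard libraries and 96.8 and 100.4 CPM in the AHARIBO libraries. The AHARIBO values were lower without overlap, and the log2 fold change was -0.13 (95% interval -0.29 to 0.02; edgeR, adjusted p = 0.368). Of the 30-nt windows of this transcript, 74.1% also occur in transcripts of 23 other genes, with Gm7901 alone holding 59.5%, so reads of Phgdh and of these copies could not be told apart. For Psat1 this share was 3.79%, and for the other 8 genes it was 0.

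Nor did the 4 remaining genes, 3 of which restrain growth or the response. Chac1 breaks down glutathione (ENSMUST00000028780.3, chr2:119351229-119354381, plus strand, 3 exons), and it had 28.2, 29.6 and 28.1 CPM in the standard libraries and 26.9 and 24.3 CPM in the AHARIBO libraries. Its groups did not overlap (log2 fold change -0.16, 95% interval -0.35 to 0.03; edgeR, adjusted p = 0.377), and the log2 fold change was -0.24 without AHARIBO replicate 1 and -0.09 without AHARIBO replicate 2. Trib3 is a pseudokinase that is induced by ATF4 and holds it back (ENSMUST00000040312.6, chr2:152337422-152344032, minus strand, 4 exons). Standard replicates 1 to 3 had 82.8, 81.1 and 73.5 CPM, and AHARIBO replicates 1 and 2 had 64.4 and 72.1 CPM. The higher AHARIBO value was close to the lowest standard value, and the log2 fold change was -0.22 (95% interval -0.39 to -0.05; edgeR, adjusted p = 0.119). Without AHARIBO replicate 1 it was -0.14 (adjusted p = 0.691).

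Sesn2 is a leucine sensor that keeps mTORC1, the growth kinase complex, in check (ENSMUST00000030724.8, chr4:132492032-132510501, minus strand, 10 exons). It had 95.6, 96.8 and 90.9 CPM in the standard libraries and 85.1 and 87.4 CPM in the AHARIBO libraries. The groups did not overlap (log2 fold change -0.13, 95% interval -0.29 to 0.03; edgeR, adjusted p = 0.374). Ddit4 encodes REDD1, another inhibitor of mTORC1 (ENSMUST00000020308.4, chr10:59949669-59951834, minus strand, 3 exons). Its standard values were 47.6, 47.5 and 36.3 CPM and its AHARIBO values 36.4 and 39.4 CPM. Standard replicate 3 stood apart from the other standard libraries and lay at the AHARIBO level, so the groups overlapped. The log2 fold change was -0.23 (95% interval -0.41 to -0.04; edgeR, adjusted p = 0.165) and, without standard replicate 3, -0.33 (adjusted p = 0.034).

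**Figure D3:**
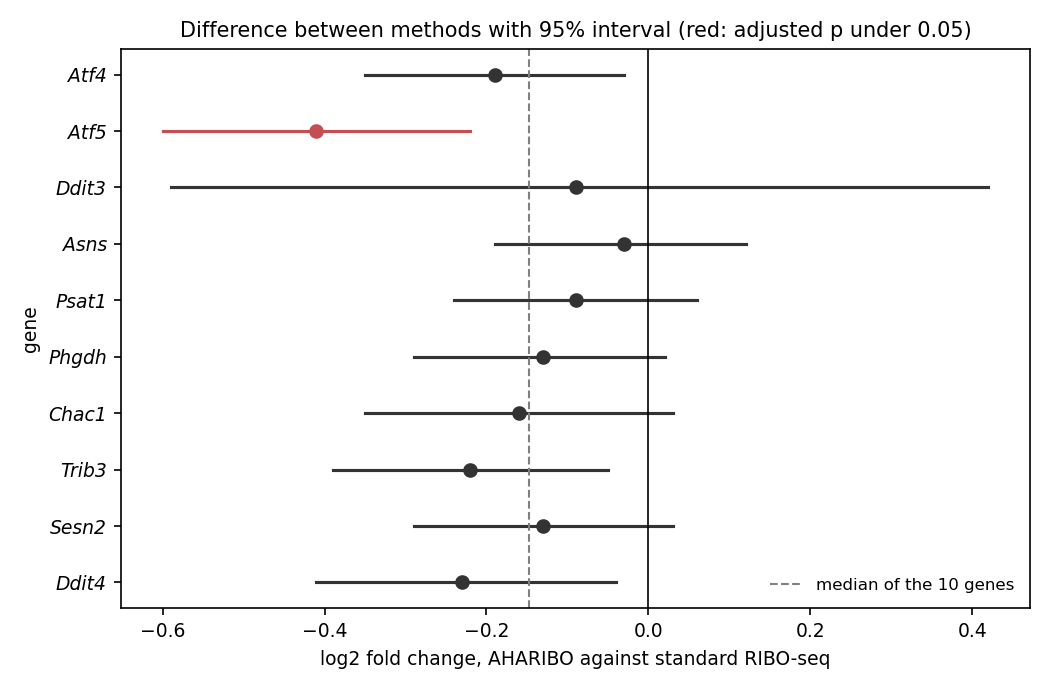
Log2 fold change, AHARIBO against standard RIBO-seq, of each gene with its 95% interval from edgeR, not adjusted for the number of transcripts. Atf5, in red, has the adjusted p under 0.05; the dashed line is the median of the 10 genes at -0.15.

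To compare the genes with each other, CPM were divided by the length of the coding sequence in kb, which spreads leader reads over the coding sequence too. In standard RIBO-seq, Psat1 came first with a level of 115 ± 1.27 CPM per kb (SD, n = 3) and Asns followed with a level of 102 ± 2.65. Trib3, Atf4, Phgdh, Sesn2 and Ddit4 came next with mean levels from 74.5 down to 63.8 CPM per kb, and in that order the ranges of neighbours over the 3 standard libraries overlapped. Chac1 at a level of 42.8 ± 1.24 and Atf5 at 38.6 ± 1.10 CPM per kb followed without overlap in either method. Ddit3 was the lowest at a level of 5.73 ± 1.20 CPM per kb, apart from all others.

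By subtraction of counts, most reads of the Atf5 transcript came from a stretch made of the leader, the beginning of the coding sequence and a short later piece. This stretch was lower in AHARIBO RIBO-seq, while the few reads placed outside it were not. Transcripts of one gene with the same sequence held equal counts in all 5 libraries in 42 of 43 such sets (97.7%, sets with at least 50 reads over the libraries), so a shared read was not given to one transcript at random. Counts of nested isoforms were therefore subtracted to place reads roughly. Counting a read on every transcript that holds it cannot be told apart here from an even split rounded to whole numbers, under which the shares of reads would have other sizes. The shorter Atf5 isoform ENSMUST00000209072.1 shares nt 85 to 551 and nt 827 to 957 of the full transcript, with the coding sequence running from nt 374 to nt 1222.
This isoform had 32.6, 30.7 and 30.3 CPM in standard replicates 1 to 3 and 20.5 and 23.0 CPM in AHARIBO replicates 1 and 2. It fell by 0.53 on the log2 scale (edgeR, adjusted p = 0.000403; DESeq2, adjusted p = 0.0265), and was not called when GC content entered as an offset (adjusted p = 0.308). At least 11, 14 and 12 reads of the full transcript were left outside it in the standard libraries, against 32 and 33 in the AHARIBO libraries. As a share of the reads of the full transcript these were 3.64%, 4.79% and 5.91% against 12.0% and 12.5%. The 95% Wilson intervals, which cover counting error only, reached up to 10.0% in standard replicate 3 and down to 8.65% in AHARIBO replicate 1, so the groups of points were apart while single intervals touched.
The difference in means was 7.51 percentage points, with an exact permutation p of 0.2 (two-sided), the smallest that 10 splits allow. In CPM the reads outside were 1.56 ± 0.335 (SD, n = 3) in standard and 3.05 ± 0.354 (SD, n = 2) in AHARIBO RIBO-seq. A second Atf5 isoform, ENSMUST00000107893.8, shares nt 258 to 1815, and the full transcript exceeded it by 130, 113 and 81 reads in the standard libraries and 95 and 85 in the AHARIBO libraries. At least these reads touch the leader before nt 258, upstream of the coding sequence. Their share was 43.0%, 38.7% and 39.9% in standard replicates 1 to 3 and 35.7% and 32.3% in AHARIBO replicates 1 and 2, without overlap. This second isoform, which holds the whole coding sequence, had a log2 fold change of -0.26. It was not called in edgeR (adjusted p = 0.187) or DESeq2 (adjusted p = 0.504). A coding isoform that shares the full transcript only from a later point of the leader onward, whatever its own 5′ end, was found in 382 genes with enough reads, and by the same subtraction both AHARIBO shares lay below all standard shares in 127 of them (33.2%) and above in 33 (8.64%), with a median difference of -0.856 points. The Atf5 difference of -6.53 points was at the 9.16th percentile. Asns, the other gene of the 10 with such an isoform, had at least 9.71% to 11.1% of its reads upstream of the shared stretch in standard and at least 6.75% and 6.99% in AHARIBO RIBO-seq, a difference of -3.39 points at the 23.0th percentile.

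The Atf4 isoform ENSMUST00000229828.1 shares nt 2 to 102 and nt 385 to 943, which holds the last 2 uORF starts and the beginning of the coding sequence. The reads of the full transcript outside it were 29.3%, 28.9% and 28.3% in standard replicates 1 to 3 and 30.6% and 33.4% in AHARIBO replicates 1 and 2. Both AHARIBO shares were above all standard shares by 3.22 points on average, with intervals that overlapped and an exact permutation p of 0.2. The isoform itself was called in neither edgeR (log2 fold change -0.26, adjusted p = 0.0709) nor DESeq2 (adjusted p = 0.273). The same measure could be taken in 692 genes with such a shorter isoform. Both AHARIBO shares lay above all standard shares in 247 of them (35.7%) and below in 50 (7.23%), with a median difference of 1.89 points, and the 5th and 95th percentiles were -3.38 and 9.31 points. The Atf5 difference was at the 90.6th percentile of these genes and the Atf4 difference at the 65.5th. In Asns, the remaining gene of the 10 with such an isoform, the shares were 64.5% to 66.4% in standard and 65.6% to 68.7% in AHARIBO RIBO-seq and overlapped.

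**Figure D4:**
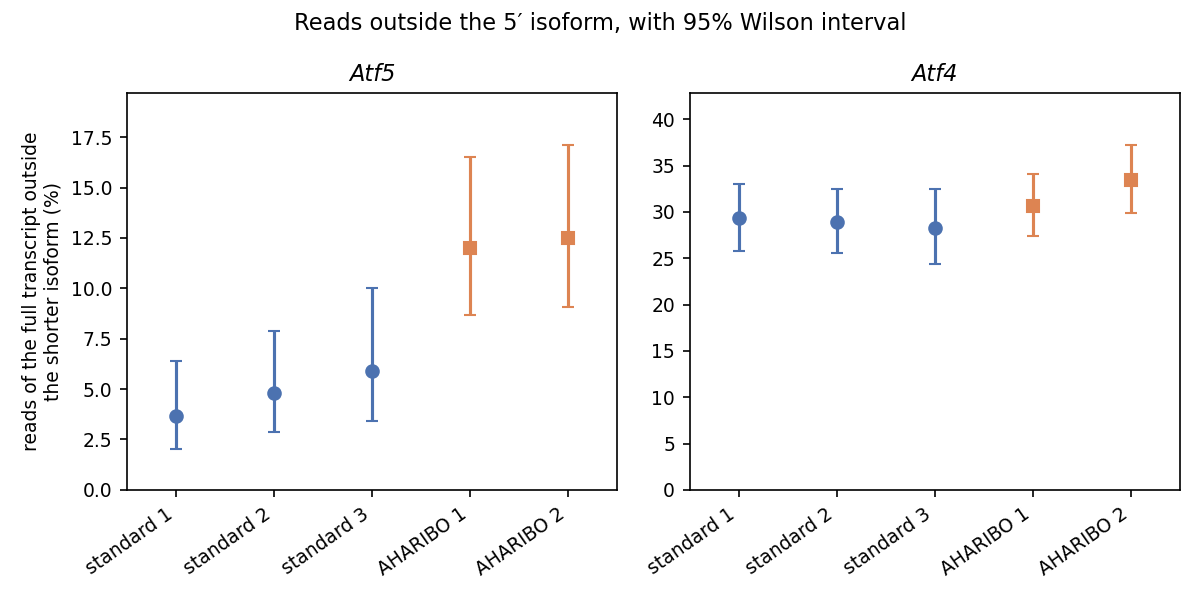
Percent of the reads of the full Atf5 (left) and Atf4 (right) transcripts that lie outside the shorter 5′ isoform in each library, with 95% Wilson intervals for counting error. Atf5 lies between 3.64% and 5.91% in standard and at 12.0% and 12.5% in AHARIBO RIBO-seq; the Atf4 groups differ by 3.22 points.

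Ddit3 showed reads on its uORF in every library. The annotated transcript ENSMUST00000230446.1 is exactly this uORF, nt 56 to 160, and it held 12, 8 and 9 of the 32, 23 and 16 reads in standard replicates 1 to 3. In AHARIBO replicates 1 and 2 it held 11 of 30 and 5 of 29 reads. The share was 34.8% to 56.2% in the standard and 17.2% to 36.7% in the AHARIBO libraries, and the groups overlapped. Of all 22 coding transcripts of the 10 genes, 22 passed the filter of 1 CPM in at least one library, and the 2 called were both of Atf5 and both lower, where 4.51% of all transcripts were called. In 15 of the 22 both AHARIBO libraries were below all standard libraries (16.5% of all transcripts) and in 0 above (17.3% of all transcripts), but isoforms of one gene share reads.

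The difference between the methods moved with the GC content of the coding sequence. Over 12269 genes whose annotated coding sequence begins with ATG, the Spearman correlation of log2 fold change with coding GC content was -0.452, a description across genes of the same libraries. Whether the annotated 3′ end was complete was not required. It was 0.28 with coding length. With ATG codons, the sites where AHA can enter, it was 0.256 for their number in the coding sequence and 0.000717 for their number per 100 codons. Genes with 65% GC or more, 371 in all, had a median log2 fold change of -0.28, and 19.1% of them were called lower. Atf5, with 65.4% GC, is among these 371 genes, and its own value was -0.41. Trib3, Sesn2 and Ddit4 are in the range from 60% to 65% GC, where the median was -0.17, and their own values were -0.22, -0.13 and -0.23. Chac1, Ddit3 and Phgdh are in the range from 55% to 60%, where the median was -0.09 and 67.5% of genes were below 0, and their own values were -0.16, -0.09 and -0.13. Asns, with 47.8% GC, lay in a range with a median of 0.08, and its own value was -0.03. Atf4 and Psat1, with 51.8% and 50.6%, lay in one with a median of 0.0061, and their own values were -0.19 and -0.09. With transcript GC content as an offset in the edgeR fit, an alternative chosen after seeing the data, Atf5 had a log2 fold change of -0.22 (adjusted p = 0.253) and Atf4 one of -0.15 (adjusted p = 0.458). None of the 10 genes was then called, where 1.94% of all transcripts were. An unadjusted p under 0.05 was found for 1 of the 10 genes and for 9367 of 66831 transcripts. With this offset Trib3 stood at -0.11, Ddit4 at -0.12, Chac1 at -0.06, Phgdh at -0.04, Ddit3 at -0.02 and Sesn2 at -0.01, all nearer to 0, while Psat1 at -0.14 and Asns at -0.08 were farther from it. The median of the 10 genes was then -0.10 against -0.0037 over all transcripts.

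**Figure D5:**
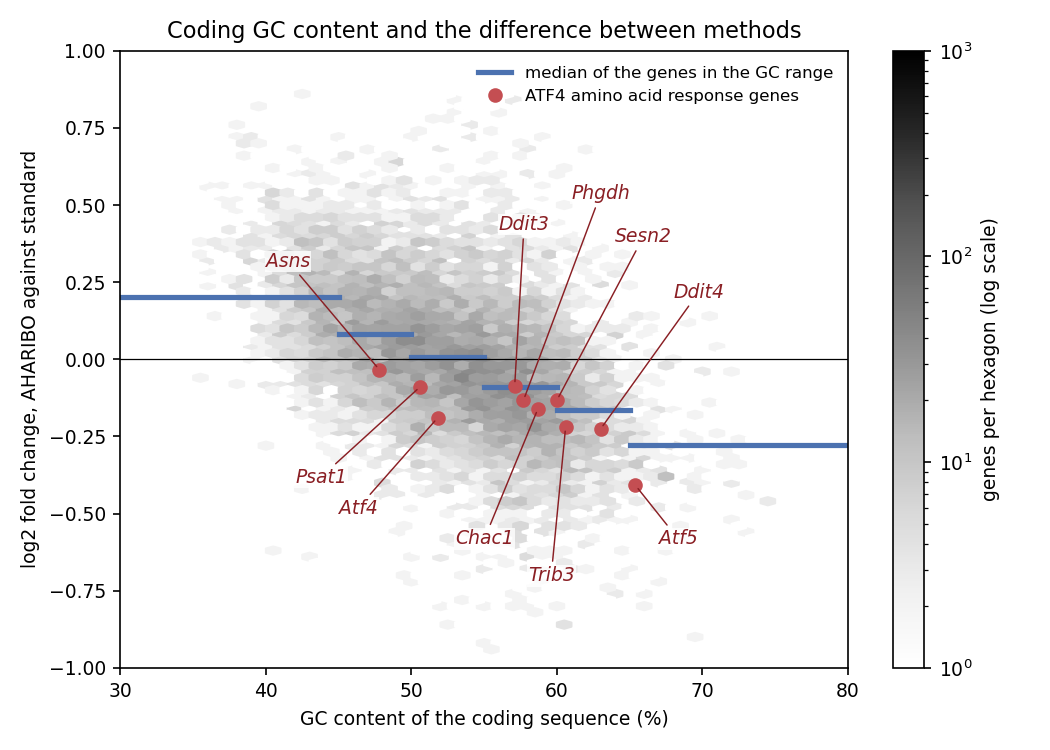
GC content of the coding sequence in percent (x axis) against log2 fold change, AHARIBO against standard RIBO-seq (y axis). Grey hexagons count 12269 genes on a log colour scale, of which 144 lie beyond the y axis and 1 beyond the x axis; blue lines are the medians of 6 GC ranges, which fall from 0.20 to -0.28, and red points are the 10 genes.

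The promoters were searched for the C/EBP-ATF response element, to which ATF4 binds with a C/EBP partner, in the form TGATGNAA on both strands, in windows from 250 bases before to 50 bases after the start (RefSeq starts, GRCm38.p6). The element was found in 3 of the 10 genes and in 4.51% of all 27025 genes with a promoter in that table. The 3 windows are shown, with the match in capitals, to give the matching letters and their place, and a match is not evidence of binding.
Asns, first base of the match 23 before the start, chr6:7693214-7693243, minus strand: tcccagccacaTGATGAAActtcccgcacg
Chac1, first base of the match 193 before the start, chr2:119351038-119351067, plus strand, match on the opposite strand: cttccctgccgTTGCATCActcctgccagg
Trib3, match 15 bases after the start, chr2:152344028-152344057, minus strand, match on the opposite strand: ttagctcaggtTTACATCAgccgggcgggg
RefSeq and Gencode starts differ for these genes. From the Gencode start of the Asns transcript used for the counts the match lies inside the leader, over the second upstream ATG, and the Trib3 match lies upstream of the Gencode start. The log2 fold changes of these 3 genes were -0.03, -0.16 and -0.22, and those of the other 7 ran from -0.41 to -0.09.

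Around these genes, 93 further genes of the pathway were described from 8 lists, of which 91 passed the filter. In edgeR at an adjusted p under 0.05 none rose and 3 fell. Without adjustment 8 were higher and 10 lower at p under 0.05, or 1 and 4 in DESeq2. With TMM normalization after the filter, 7 were higher and 10 lower in edgeR, where 12587 of all 66972 transcripts had an unadjusted p under 0.05. In DESeq2 4354 of 66972 transcripts did. The 3 genes are 3.30% of the 91, where 4.51% of all transcripts were called. The median log2 fold change was -0.0050, and 46 of 91 were below 0. The genes that fell were Cebpb, Bbc3 and Eif4ebp1. Cebpb, a bZIP partner of ATF4, had 34.2, 34.3 and 27.6 CPM in standard replicates 1 to 3 and 21.0 and 22.2 CPM in the AHARIBO libraries, without overlap. Its log2 fold change was -0.59 (SE 0.10; edgeR, adjusted p = 0.000118; DESeq2, adjusted p = 0.0133). Bbc3, which encodes the death-promoting protein PUMA, had 19.8, 16.7 and 21.3 CPM against 12.0 and 14.9 CPM, also without overlap (log2 fold change -0.51, SE 0.12; edgeR, adjusted p = 0.00748; DESeq2, adjusted p = 0.131). Eif4ebp1, a repressor of cap-dependent initiation, had 91.1, 83.2 and 88.8 CPM against 67.1 and 78.7 CPM (log2 fold change -0.27, SE 0.08; edgeR, adjusted p = 0.0478; DESeq2, adjusted p = 0.202).
The transcripts of Cebpb and Bbc3 have 67.2% and 65.2% GC and that of Eif4ebp1 48.2%. With the GC offset Cebpb (-0.28, adjusted p = 0.144) and Bbc3 (-0.25, adjusted p = 0.327) were not called, Eif4ebp1 was (-0.32, adjusted p = 0.0377), and the cystine transporter Slc7a11 (-0.34, adjusted p = 0.0436) and the glycine transporter Slc6a9 (0.47, adjusted p = 0.0474) were called as well. Eif4ebp1 also lost its call under every other normalization tried. Without standard replicate 1 or without AHARIBO replicate 1, Cebpb alone of the 91 was called. Leaving out standard replicate 2 added Tsc1 (0.71) and Depdc5 (0.55), both higher and both restraints on mTORC1, and leaving out AHARIBO replicate 2 added these and Jund (-0.43). With all 5 libraries Tsc1 was also called higher with library size in place of TMM (0.50, adjusted p = 0.0384) and with no filter on low counts (0.47, adjusted p = 0.0424).

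In the other 6 lists no gene passed the edgeR test. Of the 10 serine, glycine and proline synthesis genes, 7 were below 0, and the most abundant, the serine hydroxymethyltransferase Shmt2, had 165 ± 7.52 CPM (SD, n = 3) in standard and 145 ± 7.46 CPM (SD, n = 2) in AHARIBO RIBO-seq (log2 fold change -0.19; edgeR, adjusted p = 0.16). Of the 10 amino acid transporters, 5 were below and 5 above 0, and Slc3a2, the heavy chain of several transporters, had a log2 fold change of -0.10 (adjusted p = 0.513). The 12 aminoacyl-tRNA synthetases, which charge tRNAs, had a median log2 fold change of -0.02 and spanned -0.15 to 0.11. The highest of them, Aars for alanine, had 309 ± 6.14 CPM (SD, n = 3) in standard and 279.7 ± 10.8 CPM (SD, n = 2) in AHARIBO RIBO-seq (edgeR, adjusted p = 0.288).
The 14 eIF2α kinases, phosphatase subunits and regulators had a median log2 fold change of 0.01, and their most abundant member Gcn1l1, the activator of GCN2, had one of 0.04 (adjusted p = 0.829). The 13 genes of mTORC1 restraint and amino acid sensing had a median of 0.11, with Tsc2 at 0.20 (adjusted p = 0.198). The 10 genes of the other arms of the unfolded protein response had a median of 0.03, with the chaperone Hsp90b1 at 0.15 (adjusted p = 0.286). The bZIP partners, 9 tested, had a median of -0.08 and the 13 further targets of ATF4 one of -0.11. Batf3 and Fgf21 were under the filter, with at most 0.952 and 0.476 CPM in any library. Stem cell markers, which are no part of the response, also included 3 of 10 genes that fell in edgeR, where 2.24% of all transcripts did, namely Sox2 (log2 fold change -0.32, adjusted p = 0.013), Klf4 (-0.34, adjusted p = 0.00836) and Utf1 (-0.34, adjusted p = 0.00484). The median of the 10 markers was -0.16 and 8 were below 0, as were 50.6% of the highest coding transcripts of all genes tested. In DESeq2 Utf1 was called (adjusted p = 0.0155) and Sox2 (0.0721) and Klf4 (0.0653) were not, and with the GC offset Sox2 was called (adjusted p = 0.0236) and Klf4 (0.0648) and Utf1 (0.581) were not.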

How the data were processed

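The deposited values are raw read counts on each transcript, which the authors gave with and without duplicate reads. Per the labels and methods they trimmed with Trimmomatic 0.36, removed rRNA and tRNA matches, aligned to Gencode M17 transcripts with STAR, and removed antisense and duplicate reads. Whether the libraries carried molecular identifiers is not given in the sources used here, and without them duplicate removal also discards independent fragments with the same ends. The counting of reads that match more than one transcript is not given in the sources used here. Unused columns of per-sample values numbered 0.

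Counts without duplicates were normalized by TMM over all transcripts, filtered at 1 CPM in at least one library, and tested with edgeR 4.0.16 (R 4.3.3) by the quasi-likelihood test, adjusted by Benjamini-Hochberg over 66972 transcripts. Standard errors were derived from the F statistic. DESeq2 1.42.0 was the alternative. Gencode M21 gave names and exons, and 98.2% of transcripts matched by identifier and version. Deviations from the group mean correlated at 0.035 between the libraries numbered 1 and at -0.094 between those numbered 2. With 2 AHARIBO libraries these deviations mirror each other, so they cannot show whether libraries of the same number shared a lysate. On simulated data with 200 of 65323 transcripts changed, edgeR recovered 98% of 2-fold changes and called 13 unchanged transcripts, and DESeq2 recovered 84% and called 2. The changes were placed only in transcripts above a minimum mean CPM, which Ddit3 did not reach. Counts were drawn with the dispersions that edgeR had estimated, and smaller changes were not simulated. The 10 genes and the pathway lists were chosen with earlier results of these data known. Named pathway genes are those called, at most 3 per list, or otherwise the most abundant one; Slc7a11, Slc6a9, Tsc1, Depdc5, Jund and the stem cell markers Sox2, Klf4 and Utf1 were named after their values were seen.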

Additional observations from a re-analysis of the deposited data

How the results depend on the processing

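With 2 against 3 libraries the calls depended on the test and on single libraries. The number of transcripts called was 3021, and 1792 with the replicate number as a block (replicate block), 272 with DESeq2, 900 with 1 transcript per gene, 148 with counts summed over a gene, 1296 with the GC offset and 105 past a log2 fold change of 1.5 at an adjusted p of 0.01. The block left 1 residual degree of freedom among shared numbers, and called Atf5 (adjusted p = 0.0112). Leaving out each library gave 510 to 3829 transcripts, 0 to 2 of the 10 genes and 1 to 6 of the 91 pathway genes. Of the 10 genes, 0 were called by DESeq2, with summed counts, with the GC offset and at the strict threshold. Of the pathway genes, 1 was called by DESeq2, 0 with summed counts and 0 at the strict threshold. With library size in place of TMM, 1978 transcripts were higher and 1048 lower, against 1520 and 1501. Signs reversed for Ddit3 without standard replicate 1 (0.116, leaving out each library in turn giving -0.1924 to 0.116), for Asns with library size (5e-04) and with duplicates kept (0.0861), and for Psat1 with duplicates kept (0.0794); none of these passed the test, and the cause was not tested. Over 17 alternatives the Atf5 log2 fold change ran from -0.49 to -0.22 and its adjusted p from 0.00293 to 0.259. Ddit3 had no adjusted p in DESeq2. Depth limits Ddit3, at 16 to 32 reads per library.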
